A study of Arabidopsis thaliana with 48 samples.

Results

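A set of 152 Arabidopsis thaliana genes peaked at 0.5 h in seedlings that received only the solvent DMSO. The genes were chosen from the 33602 genes of the deposited count table by their levels in DMSO libraries at 0, 0.5 and 1 h. With the level written as log2(group mean CPM + 1), where CPM is a gene's count divided by the library's gene counts and expressed per 1000000 counts, a gene was taken if its 0.5 h level lay at least 0.8 above its 0 h level and at least 0.8 above its 1 h level, in both genotypes. The DMSO values at these times are therefore a description, as is any comparison that uses them, and tests compare only libraries that the choice did not use. The fit behind the tests takes each gene's spread from all 48 libraries, those that chose the genes included. Seedlings were of the Col-0 ecotype, grown for 7 days in liquid Murashige-Skoog medium with sucrose under long days. WT was a line that expresses the calcium reporter aequorin, and card1 was the mutant card1-2 in that same background, so every library carries the reporter. Each genotype received 5 µM DMBQ, a quinone related to breakdown products of lignin, or an equal volume of DMSO, and was sampled at 0, 0.5, 1 and 6 h, with 3 libraries in each of the 16 groups. No group was left without solvent, so the effects of the solvent, of handling and of the time of day cannot be told apart. Whether the 3 libraries of a group came from different cultures is not stated, so the p-values rest on a spread between libraries that may be technical.

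Plants answer touch, wounding, cold and microbial patterns with a rapid and short-lived rise of transcripts that code for calcium sensors, transcription factors, wall-modifying enzymes and regulators of protein and RNA turnover. Calcium entering the cytosol is read by calmodulin and by calmodulin-like proteins, and calmodulin-binding CAMTA factors bind CG-rich elements upstream of many early genes, among them the rapid stress response element. WRKY factors, which bind W-boxes, and mitogen-activated protein kinases act in the same early phase of defence. The touch genes TCH2, a calmodulin-like protein, and TCH4, a xyloglucan endotransglucosylase that remodels the wall, are textbook members of this response, and both were among the 152 genes.

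Library depth ran from 4764682 to 14492051 gene counts. CARD1 (AT5G49760), the receptor kinase gene of the mutant, was at 65.9 to 108.5 CPM in the WT libraries and 16.9 to 35.6 CPM in the card1 libraries, without overlap. All 6 shoot and all 6 root markers were detected in all 48 libraries. The root markers summed to 37.3 to 50.9 CPM in the WT libraries at 0.5 h with DMBQ, below 61.9 to 81.3 CPM at 0 h. In card1 the sums were 41.0 to 51.4 CPM at 0.5 h and 62.3 to 73.0 CPM at 0 h. From 0 to 0.5 h 5 of the 6 root markers fell in WT and 3 in card1 by the edgeR test described below, and 1 of the 6 shoot markers rose in WT. Their part in the results was not tested. In bulk seedlings, fewer cells of a type and less RNA per cell cannot be told apart. A trend of relative expression with transcript length set some libraries apart. Its Spearman rho across genes was -0.44 to -0.40 in the 3 WT libraries at 0.5 h with DMBQ and -0.53 and -0.51 in replicates 1 and 2 of card1 at 0 h in DMSO, against -0.21 to 0.18 in the other libraries. Without those 2 DMSO libraries the rule gave 150 genes, 146 of them shared with the 152. The counts of members that rest on the WT libraries at 0.5 h with DMBQ are given below also with a correction for transcript length and GC content, while values of single genes are uncorrected.

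Summed over the 152 genes, the level rose sharply at 0.5 h in all 4 combinations of genotype and agent. In WT in DMSO the 3 libraries held 4553, 3165 and 4166 CPM at 0 h and 9488, 7285 and 10738 CPM at 0.5 h. The sum was 2639 ± 471 CPM at 1 h and 1872 ± 55 CPM at 6 h (SD, n = 3). In WT with DMBQ, in libraries the choice did not use, the sum was 5276, 3112 and 4023 CPM at 0 h and 7704, 9741 and 11408 CPM at 0.5 h. With DMBQ the groups at 0 and 0.5 h did not overlap in either genotype. Nor did they in DMSO, where the choice of genes by their rise favours such a gap. In card1 with DMBQ the libraries held 5066, 3143 and 3975 CPM at 0 h and 10328, 12084 and 15361 CPM at 0.5 h. That peak corresponded to 1.26 ± 0.26% of all gene counts, against 0.962 ± 0.186% in WT with DMBQ. In DMSO the peak was 1.11 ± 0.22% in card1 and 0.917 ± 0.175% in WT, in libraries that chose the genes. By 1 h with DMBQ the WT sum was 3177 ± 293 CPM and the card1 sum 3227 ± 860 CPM, and by 6 h 2056 ± 51 and 1875 ± 73 CPM.

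**Figure D1:**
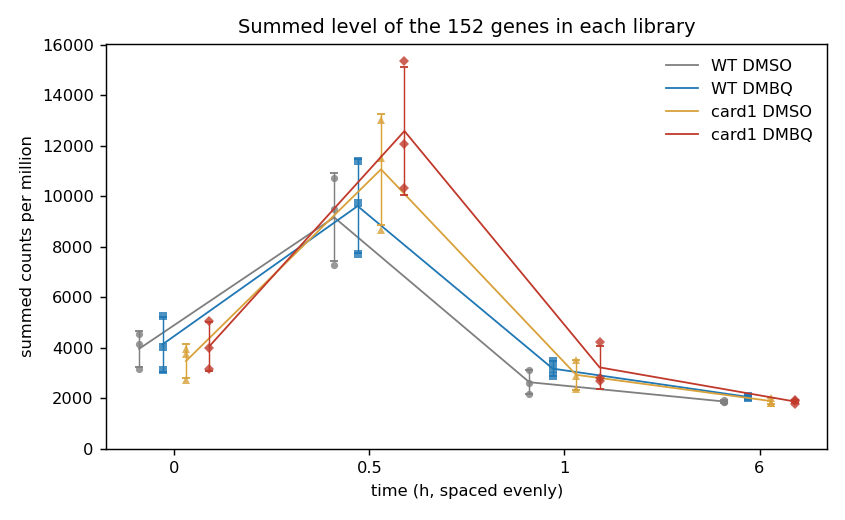
Summed CPM of the 152 genes in each library (points) against time in hours, spaced evenly, for WT and card1 in DMSO or DMBQ; lines join group means and bars are the SD of 3 libraries. All 12 libraries at 0.5 h lie at 7285 CPM or more, and no library at another time exceeds 5276 CPM. The DMSO libraries at 0, 0.5 and 1 h chose the genes.

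The choice itself gives the following values, with no test. Taking the smaller of both genotypes' rises in DMSO, AT1G66090, a TIR-NBS disease resistance protein, had the largest. Its 3 WT libraries in DMSO held 1.11, 0.487 and 0.902 CPM at 0 h, 13.1, 7.05 and 16.4 CPM at 0.5 h and 0.667, 0.734 and 1.49 CPM at 1 h. Its rise on the log2(CPM + 1) scale was 2.85 in WT and 3.67 in card1. AT1G33760, an AP2/ERF factor, followed with rises of 2.61 and 3.39, from group means under 1 CPM. CYP707A3, an abscisic acid 8'-hydroxylase that inactivates this hormone, rose by 2.53 and 3.36 on the same scale. Its WT libraries in DMSO held 9.22, 7.30 and 10.4 CPM at 0 h and 48.2, 36.5 and 84.7 CPM at 0.5 h. The next largest rises belonged to XBAT34, AT2G20142, AT5G51190, AT5G41750, DIC2, LOX4 and ZAT7. At the other end, the smallest of the 4 steps was 0.81 for PP2CA, 0.80 for AT1G74330 and 0.80 for AT1G64065, the members just inside the threshold, and 0.799 for AT5G66070, 0.799 for TIP and 0.797 for AT5G12880, the genes just outside it.

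By annotation the set held 13 TIR-domain proteins, 13 calcium sensors and calmodulin-binding proteins, 17 cell wall proteins, 8 AP2/ERF factors, 4 WRKY factors and 10 other DNA-binding factors. It also held 7 enzymes of hormone synthesis and turnover, 8 protein kinases and phosphatases, 6 ubiquitin ligases and armadillo-repeat proteins, 5 membrane transport proteins, 2 RNA turnover proteins and 59 genes of other or unknown function. These role groups were drawn up after the members were known.

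**Figure D2:**
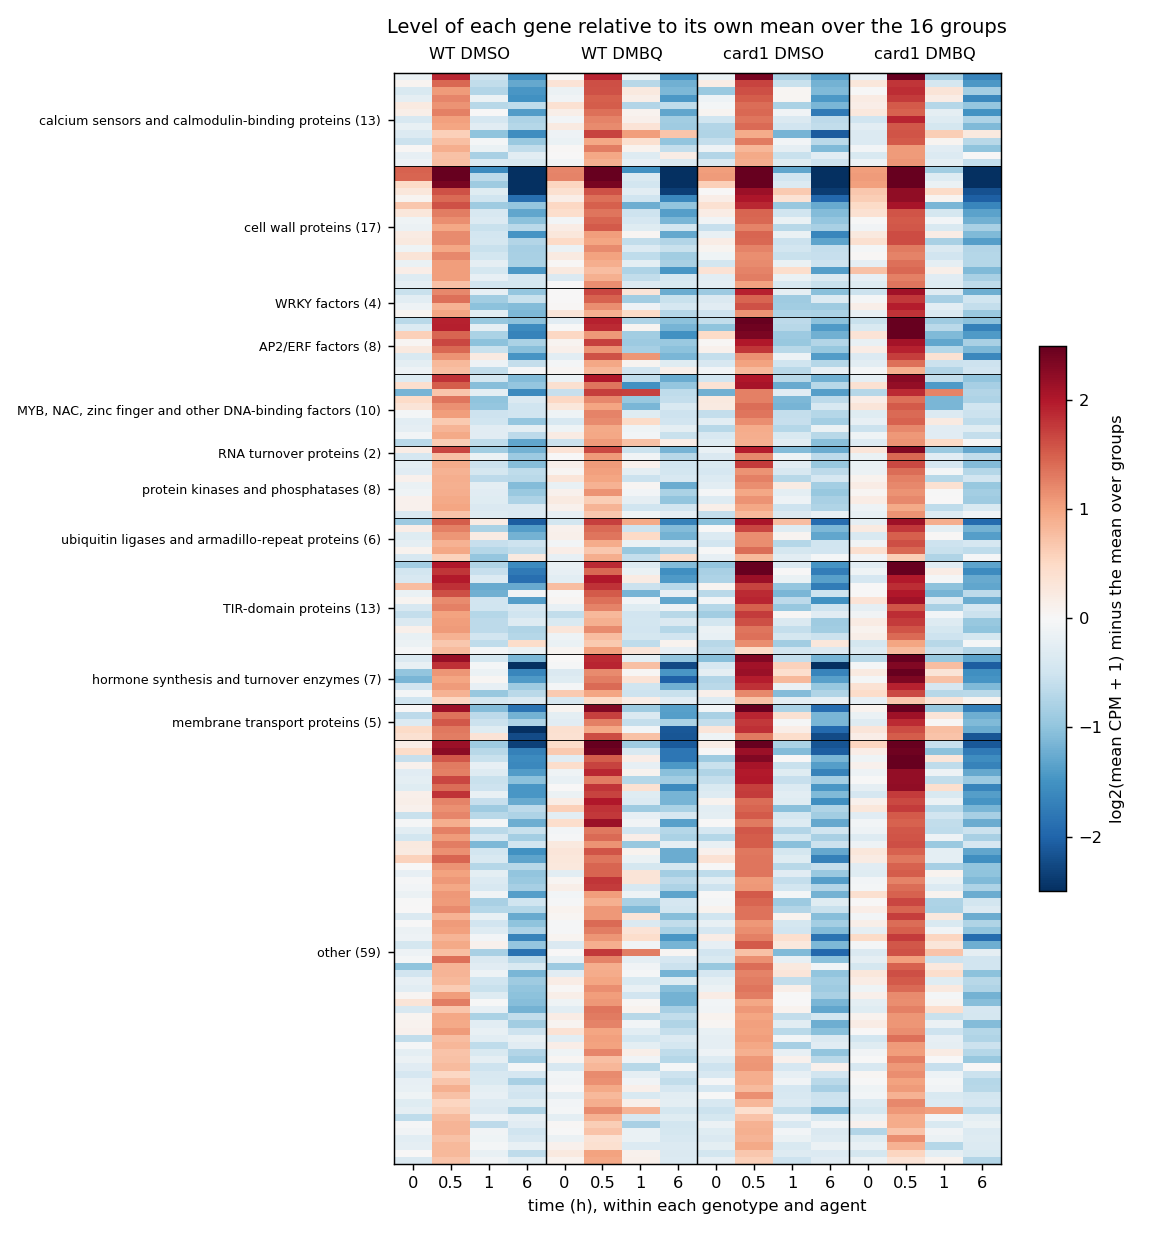
Level of each of the 152 genes in the 16 groups, as log2(mean CPM + 1) minus the gene's own mean over groups (red higher, blue lower), with genes in rows sorted by role and times in hours in columns. The 0.5 h column is the highest of each DMBQ block for all 152 genes in both genotypes, and 6 h is the lowest of its DMBQ block for 119 genes in WT and 118 in card1.

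Gene structure and upstream letters, which the choice did not use, differed in frequency between the members and all tested genes. Of the 152 genes, 65 (42.8%) had a single annotated exon, against 16.2% of 19714 tested genes with an annotation, and the median number of exons was 2 against 4. Transcript length differed less, with medians of 1705.5 and 1754.5 bases. In the 300 bases upstream of the annotated start, read on both strands, CGCGTT, the core of the rapid stress response element, was found in 21 genes (13.8%), against 3.29% of 19713 tested genes. The shorter CAMTA core CGCG, which lies within CGCGTT, was found in 28.3% against 12.4%. The W-box TTGACT was found in 38.2% against 21.5%, and its core TTGAC in 63.2% against 50.3%. Other motifs were closer to all genes, with CCGAC in 19.1% against 14.8%, GCCGCC in 3.29% against 2.44%, CACGTG in 6.58% against 7.88%, TGACG in 23.0% against 22.0% and TATAAA in 55.3% against 52.0%. At least 1 of CGCGTT and TTGACT was found upstream of 72 of the 152 genes (47.4%), against 24.0% of all tested genes. Both CGCGTT and TTGACT occurred upstream of 7 genes (4.61%), against 0.776% of all tested genes. Genes with CGCGTT had a median log2 rise with DMBQ of 1.68 in WT and 1.63 in card1, and those without it 1.37 and 1.79, so the order differed between genotypes. A match is a description of letters, not a site.

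**Figure D3:**
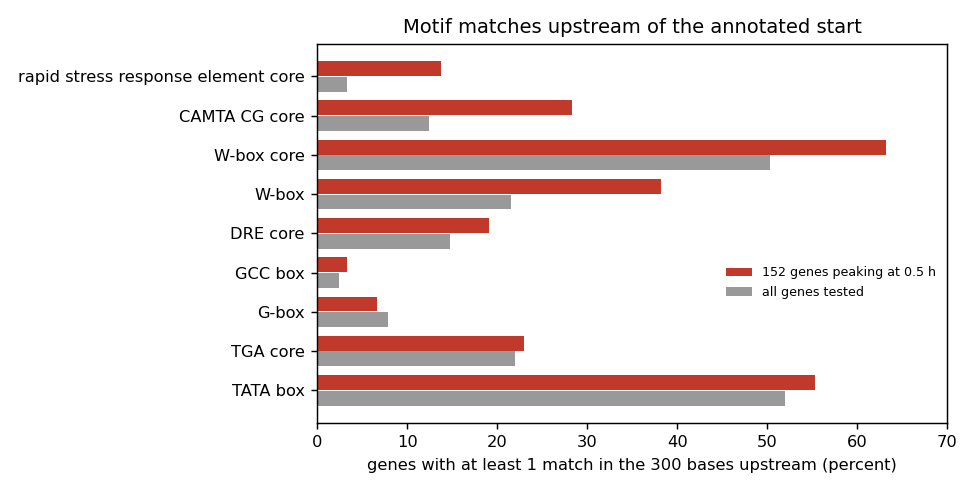
Share of genes (percent) with at least 1 match to each of 9 motifs in the 300 bases upstream of the annotated start, for the 152 genes (red) and all tested genes (grey). The rapid stress response element core stands at 13.8% against 3.29% and the W-box at 38.2% against 21.5%, while the G-box stands at 6.58% against 7.88%.

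The upstream regions of TCH2, AT1G66090 and PHI-1 are shown because TCH2 and AT1G63860 hold the most CGCGTT matches, with 4 each, and because AT1G66090 and PHI-1, a phosphate-responsive cell wall protein, hold both motifs. Sequences are from RefSeq, assembly TAIR10.1, printed 5' to 3' along the gene's strand, with CGCGTT and TTGACT, on either strand, in capitals. They lie at chr5:14999620-14999919 (minus strand) for TCH2, chr1:24601733-24602032 (plus strand) for AT1G66090 and chr1:12851683-12851982 (plus strand) for PHI-1. The 4 matches of TCH2 form 2 stretches that read the same on both strands, the first of which begins 84 bases before the start.
TCH2: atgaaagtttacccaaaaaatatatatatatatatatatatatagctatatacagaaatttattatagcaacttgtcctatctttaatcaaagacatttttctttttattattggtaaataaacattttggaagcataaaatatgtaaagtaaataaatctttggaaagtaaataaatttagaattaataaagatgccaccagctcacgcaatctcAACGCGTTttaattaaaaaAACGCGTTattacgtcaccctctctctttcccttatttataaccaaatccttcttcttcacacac
AT1G66090: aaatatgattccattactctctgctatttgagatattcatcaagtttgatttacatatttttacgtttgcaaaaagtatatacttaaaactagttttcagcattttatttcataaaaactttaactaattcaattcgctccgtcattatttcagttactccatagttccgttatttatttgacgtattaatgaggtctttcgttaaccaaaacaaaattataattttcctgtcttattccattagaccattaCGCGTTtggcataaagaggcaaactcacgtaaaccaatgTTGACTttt
PHI-1: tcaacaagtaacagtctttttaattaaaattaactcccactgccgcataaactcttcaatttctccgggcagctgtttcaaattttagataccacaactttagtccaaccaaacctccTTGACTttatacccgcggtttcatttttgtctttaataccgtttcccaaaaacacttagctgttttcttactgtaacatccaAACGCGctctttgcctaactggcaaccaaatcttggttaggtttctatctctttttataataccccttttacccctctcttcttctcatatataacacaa

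The same genes moved with DMBQ, in libraries that had no part in the choice. In WT, 145 of 152 rose from 0 to 0.5 h and none fell, at an adjusted p under 0.05 from edgeR's quasi-likelihood test with Benjamini-Hochberg adjustment over 19839 genes, while 13.7% of all tested genes rose and 13% fell. In card1, 150 of 152 rose and none fell, while 5.86% of all tested genes rose and 2.28% fell. All 152 fitted fold changes were positive in both genotypes. The median log2 fold change was 1.40 in WT and 1.78 in card1, against medians of 0.0085 and -0.021 over all tested genes. From 0.5 to 1 h, 142 genes fell in WT and 146 in card1, and none rose. Of all tested genes, 17.9% fell and 17.7% rose in WT, and 7.45% fell and 6.86% rose in card1. The members' fold changes had medians of -1.61 and -1.97. Rise and fall both passed in both genotypes for 134 genes, and 143 rose in both. With the correction for length and GC content, 140 genes rose in WT, all among the 145, and 150 in card1, and 140 fell in WT, 139 of them among the 142. Of the genes singled out by rule, ERF11, BAP1, XTH33 and cycp3;1 lost their WT rise under it. In a fit to the compared libraries alone, whose spread owes nothing to the libraries of the choice, 112 genes rose in WT and 118 in card1. Of the genes singled out, CAF1a, CYP94C1, DIC2, ERF11, PHI-1, PUB23, RAS1, SZF1, TCH4, WRKY18 and WRKY48 lost their rise there in both genotypes. AT5G41750, BME3, DREB26, EXO, IP5PII, MYB77, MYBR1, NAC062 and XTH19 lost it in WT only. ACS6, AT1G77640, BAP1, CBP60G, CMPG1, GATL10, HSPRO2, LOX4, NHL3, NRT1.8 and WRKY33 lost it in card1 only. All 3 libraries at 0.5 h lay above all 3 at 0 h for 133 members in WT and 150 in card1. That count was not made over all tested genes, so it is a description and does not compare the genotypes.

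Of all 152 members, 145 rose in WT and 150 in card1, so the high counts by role below are not particular to a role. Of the calcium sensors and calmodulin-binding proteins, 13 of 13 rose in both genotypes, with median log2 fold changes of 1.37 and 1.57. TCH2 (AT5G37770, chromosome 5) held 61.9, 28.0 and 42.6 CPM at 0 h in WT with DMBQ, 102, 98.5 and 124 CPM at 0.5 h, 21.6, 18.4 and 23.0 CPM at 1 h and 12.9, 17.1 and 13.5 CPM at 6 h. Its 0.5 h libraries stood above all others, and at 1 h it was below its starting level. The log2 fold change at 0.5 h was 1.36 ± 0.22 (SE, adjusted p = 3.8e-05) in WT and 1.55 ± 0.22 (adjusted p = 7.9e-06) in card1. AT4G27280, an EF-hand protein, rose by 2.03 and 3.02 on the log2 scale. The calcium-dependent protein kinase CPK32 rose by 1.02 and 1.27, and SARD1, a factor that drives salicylic acid synthesis, by 1.37 in WT. Of 26 touch genes, calmodulin-like proteins and calcium kinases in a list drawn up from textbook knowledge, 6 were among the 152 genes. Of the whole list, 17 rose in WT and 16 in card1, against 13.7% and 5.86% of all tested genes, and none fell.

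Cell wall proteins were the largest group with a named role, with 16 of 17 rising in WT and 17 of 17 in card1. TCH4 (AT5G57560, chromosome 5) held 233, 114 and 202 CPM at 0 h in WT with DMBQ, 326, 576 and 616 CPM at 0.5 h, 51.5, 56.9 and 66.4 CPM at 1 h and 5.00, 5.51 and 6.63 CPM at 6 h. No library of 0.5 h overlapped with one of 0 h, and the 6 h libraries were the lowest. In card1 the 0 h libraries held 225, 72.8 and 186 CPM, and those at 0.5 h 548, 643 and 852 CPM. The rise was 1.53 ± 0.39 (adjusted p = 0.0038) in WT and 2.08 ± 0.39 (adjusted p = 0.00035) in card1 on the log2 scale. Both calls were lost in a fit to the compared libraries alone. EXO, an extracellular protein linked to brassinosteroid-dependent growth, rose by 1.04 ± 0.24 and 1.61 ± 0.24. The xyloglucan genes XTR6, CSLC04 and XT1, which code for an endotransglycosylase, a glucan synthase and a xylosyltransferase, rose in both genotypes, by 1.92, 0.81 and 0.99 in WT on the log2 scale. The arabinogalactan protein genes AGP1, AGP10 and AGP18 also rose in both. Of 12 xyloglucan endotransglucosylases in a textbook list, 7 rose and 3 fell in WT, and 6 rose and 1 fell in card1. Of all tested genes, 13.7% rose and 13% fell in WT, and 5.86% rose and 2.28% fell in card1. Like most members, the role group ended low. At 6 h, 13 of its 17 genes were below 0 h in WT and 16 in card1. Of all 152 members 59.2% were below in WT and 68.4% in card1, and of all tested genes 16.8% in each genotype.

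**Figure D4:**
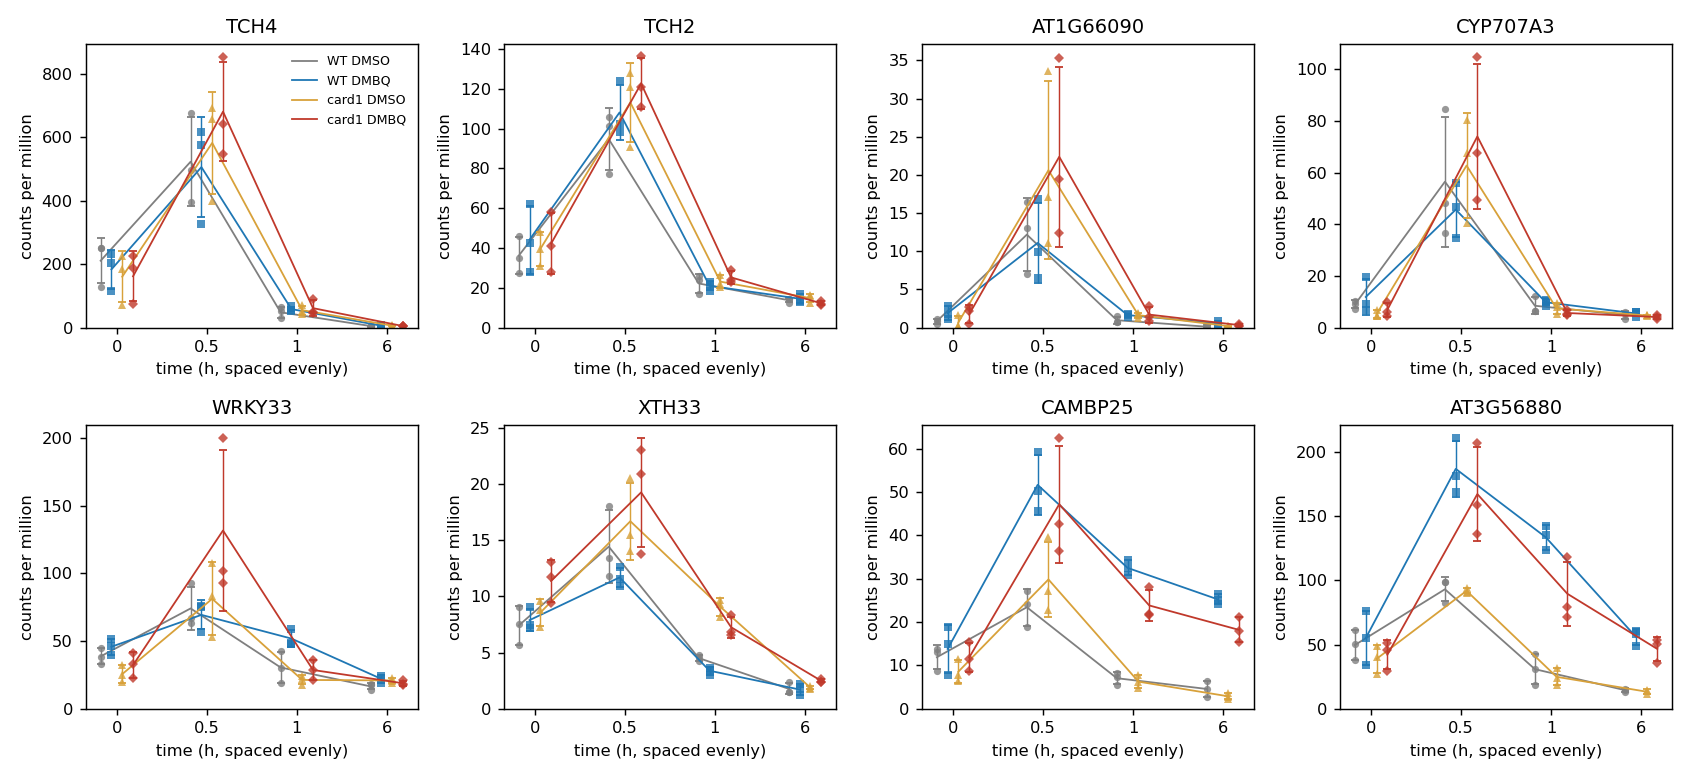
CPM of 8 of the genes in each library (points) against time in hours, spaced evenly, for WT and card1 in DMSO or DMBQ; lines join group means and bars are the SD of 3 libraries. TCH4, TCH2, AT1G66090 and CYP707A3 peak at 0.5 h with both agents, and CAMBP25 and AT3G56880 stay above the DMSO libraries at 1 and 6 h with DMBQ. The WRKY33 mean at 0.5 h is highest in card1 with DMBQ, where the libraries hold 93.0, 102 and 200 CPM. The card1 libraries in DMSO hold 53.3, 83.1 and 107 CPM at that time.

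Among transcription factors, 7 of 8 AP2/ERF factors, 3 of 4 WRKY factors and 10 of 10 other DNA-binding factors rose in WT, and all 22 rose in card1. AT1G33760 had the largest rise with DMBQ in both genotypes. Its libraries held 1.50, 0.191 and 0.359 CPM at 0 h in WT, 3.69, 8.10 and 8.68 CPM at 0.5 h, and 0.150, 0.207 and 0.238 CPM at 1 h. It was at 0 counts in all 6 libraries at 6 h with DMBQ. The log2 rise was 3.44 ± 0.54 (adjusted p = 3.1e-05) in WT and 5.17 ± 0.53 (adjusted p = 9.6e-08) in card1. ZAT7, a zinc finger factor, rose by 3.04 and 3.41, and LBD11, a LOB-domain factor, by 2.26 and 2.85. WRKY46 and WRKY18, regulators of defence, rose by 2.18 and 1.54 in WT and by 3.46 and 1.85 in card1. MYB51, a regulator of indole glucosinolate synthesis, rose by 1.17 and 1.82. Of the 25 tested WRKY factors in a textbook list, 10 rose and 2 fell in WT, and 10 rose and 1 fell in card1. The shares over all tested genes were 13.7% rising and 13% falling in WT, and 5.86% and 2.28% in card1.

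All 13 TIR-domain proteins rose in both genotypes and all 13 fell again by 1 h. Of all 152 members, 145 and 150 rose and 142 and 146 fell in WT and card1, so these counts are not particular to the group. TIR domains are found in intracellular immune receptors and in shorter relatives without their repeat domain. AT1G66090 held 2.88, 1.72 and 1.08 CPM at 0 h in WT with DMBQ, 6.51, 9.87 and 16.9 CPM at 0.5 h and 1.43, 1.66 and 1.83 CPM at 1 h. The 0.5 h libraries stood apart from both neighbours in time. Its log2 rise was 2.61 ± 0.52 (adjusted p = 0.00032) in WT and 3.63 ± 0.48 (adjusted p = 2e-06) in card1. AT2G20142, a short TIR-domain protein, rose by 2.57 ± 0.31 and 2.65 ± 0.31, and WRR4, a receptor for white rust resistance, by 1.65 and 2.06. AT1G72900, AT1G72910, AT1G72920 and AT1G72940 lie side by side on chromosome 1, between positions 27432178 and 27443859, all on the plus strand, with 1 coding gene between the last pair. AT2G32190, AT2G32200 and AT2G32210, small cysteine-rich transmembrane proteins on chromosome 2 (13674255 to 13678906), form another such cluster. In all, 11 of the 152 genes lay within 10000 bases of another member, in 4 clusters, a count that was not made for other sets of genes. The counts of such close relatives are uncertain, since the way reads shared between genes were counted is not stated. A further limit is that 26 members overlap another annotated gene and no source used here gives the strand setting of the counting.

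Regulators of protein and RNA turnover and kinases rose too. XBAT34, of a family of ankyrin-repeat RING ubiquitin ligases, rose by 2.41 ± 0.33 (adjusted p = 2.5e-06) in WT and 2.48 ± 0.31 (adjusted p = 8.4e-07) in card1. The U-box ligases CMPG1 and PUB23, which act in immune signalling, rose by 1.39 and 1.10 in WT and by 1.57 and 1.79 in card1. The deadenylase CAF1a and the CCCH zinc finger protein SZF1, both tied to mRNA turnover, rose by 1.20 and 1.37 in WT and by 1.72 and 2.04 in card1. MPK3, a mitogen-activated protein kinase of immune signalling, held 94.7, 70.4 and 81.6 CPM at 0 h and 129, 161 and 166 CPM at 0.5 h in WT with DMBQ. Its rise was 0.94 ± 0.18 (adjusted p = 0.00025), and it was the only member of a 17-gene list of the MAP kinase cascade within the set. All 8 kinases and phosphatases rose in both genotypes, with medians of 1.02 and 1.20.

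Enzymes of 3 hormones were in the set. CYP707A3 held 19.8, 6.69 and 9.10 CPM at 0 h in WT with DMBQ and 34.6, 46.6 and 55.8 CPM at 0.5 h, without overlap. In card1 its libraries held 9.94, 4.62 and 6.08 CPM at 0 h and 49.5, 67.7 and 105 CPM at 0.5 h. The log2 rise was 2.03 ± 0.34 (adjusted p = 5.2e-05) in WT and 3.44 ± 0.36 (adjusted p = 5.3e-08) in card1. The related CYP707A1 rose by 1.08 and 1.02. ACS8 and ACS11, which make the ethylene precursor, rose by 2.11 and 2.12 in WT and by 2.66 and 2.50 in card1. LOX4, a lipoxygenase of the jasmonate pathway, rose by 1.94 and 2.67, and CYP94C1, which oxidises active jasmonate, by 1.74 and 1.70. The jasmonate-responsive JAZ repressors and MYC2 held no member of the set. Of the 12 tested, 3 rose at 0.5 h in WT and 0 in card1 by edgeR's quasi-likelihood test, against 13.7% and 5.86% of all tested genes. By DESeq2 the counts were 2 and 0. At an unadjusted p under 0.05 the counts were 4 and 3, and the median log2 fold changes were 0.28 in WT and 0.27 in card1. The difference between genotypes was not tested for the list.

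Of 5 membrane transport proteins, 4 rose in WT and 5 in card1. DIC2, a mitochondrial dicarboxylate carrier, held 13.5, 6.78 and 9.45 CPM at 0 h in WT with DMBQ, 21.4, 39.7 and 92.8 CPM at 0.5 h and 4.06, 3.93 and 6.03 CPM at 1 h. The spread at 0.5 h was wide, yet every library stood above those of the other times. Its rise was 2.45 ± 0.52 (adjusted p = 0.00066) in WT and 3.21 ± 0.50 (adjusted p = 2.5e-05) in card1. A fit to the compared libraries alone called neither. SLAH3, an anion channel, rose by 1.61 ± 0.30 and 2.21 ± 0.30. Among the genes with no assigned role, HSPRO2, which resembles a sugar beet nematode resistance protein, was among the most counted, with 266, 332 and 298 CPM at 0.5 h against 177, 99.8 and 156 CPM at 0 h in WT with DMBQ.

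The 7 genes not called as rising in WT were WRKY33, NRT1.8, GATL10, AT1G77640, ACS6, AT1G18290 and AT1G35210, the last pair named after their values were seen. WRKY33, a regulator of defence against necrotrophic fungi, held 51.7, 39.7 and 46.1 CPM at 0 h and 57.1, 75.8 and 75.2 CPM at 0.5 h, a log2 fold change of 0.66 ± 0.27 (adjusted p = 0.072). ACS6 held 14.9, 5.92 and 7.90 CPM at 0 h and 9.06, 12.4 and 15.5 CPM at 0.5 h, groups that overlap. In card1 the 2 genes not called were AT2G42360, a RING protein (0.87 ± 0.30, adjusted p = 0.067), and AT1G64065 (0.65 ± 0.39, adjusted p = 0.37). Leaving out 1 library at a time ended 20 called rises among the 75 genes singled out by rule. In WT these were THE1, CBP60G, HSPRO2, WRKY48, ERF11, MYB77, MYBR1, XTH19, PUB23, BAP1, CYP94C1, cycp3;1, AT1G72910 and AT1G64065. In card1 they were ACS6, GATL10, NRT1.8, HSPRO2, CYP94C1 and RAS1. The libraries concerned were replicates 2 and 3 of both genotypes at 0 h and of WT at 0.5 h, and replicate 3 of card1 at 0.5 h, all with DMBQ.

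After the peak, more genes lay below than above their 0 h level. At 1 h with DMBQ, 11 genes were above 0 h and 32 below in WT (11.9% and 11.1% of all tested genes), and 7 above and 34 below in card1 (8.53% and 8.51%). Without replicate 1 at 0 h, the card1 counts were 8 and 13, and without replicate 1 at 1 h they were 10 and 12. The 6 genes above 0 h in both genotypes were CAMBP25, AT3G56880, AT5G01380, AT2G38250, XBAT34 and AT4G01140, while 27 were below in both. At 6 h, 90 genes were below 0 h in WT and 104 in card1, where 16.8% of all tested genes were below in each genotype. The median log2 fold changes were -1.10 and -1.19, and 80 genes were below in both. Without replicate 1 at 0 h with DMBQ, 60 genes were below in WT and 70 in card1. TCH4 fell furthest among genes with counts in every group, by 5.04 ± 0.53 in WT and 5.21 ± 0.53 in card1 on the log2 scale. The only gene called above its 0 h level at 6 h was CAMBP25 in WT (0.85 ± 0.27, adjusted p = 0.014), a call lost without replicate 2 of WT at 0 h (adjusted p = 0.14) and in a fit to the compared libraries alone (adjusted p = 0.076), while 15.6% of all tested genes were above in WT and 15.8% in card1.

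The peak was present with either agent. At 0.5 h the DMBQ mean lay more than 0.8 above the DMSO mean on the log2(CPM + 1) scale for 4 genes in WT and 1 in card1, and more than 0.8 below it for none. These comparisons use DMSO libraries that chose the genes and have no test. CAMBP25, a calmodulin-binding protein linked to osmotic stress, held 24.2, 18.8 and 27.2 CPM in DMSO and 45.6, 50.3 and 59.1 CPM with DMBQ at 0.5 h in WT, without overlap. AT3G56880, a VQ motif protein of a family that binds WRKY factors, held 98.4, 82.1 and 98.4 CPM in DMSO and 168, 181 and 211 CPM with DMBQ. The others in WT were AT5G01380, a homeodomain-like factor, and AT2G32210. At 1 h the number past 0.8 was 11 in WT and 4 in card1. The most negative difference at 0.5 h in WT was -0.41 for AT1G18290, a DUF4228 protein, with 6.33, 4.55 and 5.48 CPM in DMSO and 3.34, 3.32 and 4.94 CPM with DMBQ, groups that overlap.

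At 6 h, where both agents' libraries were independent of the choice, 3 genes were higher with DMBQ than in DMSO in WT and 3 in card1, and none lower. The 3 genes are 1.97% of the members, against 1.02% of all tested genes higher and 0.207% lower in WT, and 0.832% and 0.222% in card1. CAMBP25 held 4.62, 6.40 and 2.70 CPM in DMSO and 26.5, 25.1 and 24.2 CPM with DMBQ in WT. In card1 it held 2.83, 2.19 and 3.59 CPM and 15.4, 18.1 and 21.1 CPM. The log2 difference was 2.42 ± 0.34 (adjusted p = 1.2e-05) in WT and 2.69 ± 0.35 (adjusted p = 4.3e-06) in card1. AT3G56880 was higher with DMBQ by 1.98 ± 0.32 (adjusted p = 0.00022) and 1.79 ± 0.31 (adjusted p = 0.00055), with 15.7, 12.9 and 14.9 CPM in DMSO and 49.1, 60.9 and 58.4 CPM with DMBQ in WT. The remaining calls were AT2G38250, a homeodomain-like factor, in WT (1.85 ± 0.42, adjusted p = 0.011) and AT2G32190 in card1 (1.64 ± 0.39, adjusted p = 0.015). The call of AT2G38250 was lost without replicate 1 or 3 of WT in DMSO (adjusted p = 0.081 and 0.073). That of AT2G32190 was lost without replicate 1 or 2 of card1 in DMSO or replicate 3 with DMBQ (adjusted p 0.1 to 0.14), while CAMBP25 and AT3G56880 were called under all 12 alternatives.

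At the peak with DMBQ, card1 stood above WT for 38 of the genes. At 0.5 h, 38 of 152 were higher in card1 and 1 lower by edgeR's quasi-likelihood test, while 13.3% and 12.8% of all tested genes were higher and lower. The median log2 difference was 0.41, against -0.019 over all tested genes, and 130 of 152 fitted differences were positive. At 0.5 h, card1 means lay above WT means for 126 of 152 genes with DMBQ and for 132 in DMSO. In DMSO the card1 mean was also above the WT mean for each of the 38 genes. Those DMSO libraries chose the genes, so these values have no test. At 0 h with DMBQ, card1 means lay above WT means for 53 of 152 genes. With the correction for length and GC content 34 were higher and none lower, 27 of them among the 39 called before. Without replicate 3 of card1 at 0.5 h 11 were higher, and without replicate 1 of WT at 0.5 h 14. With 8 genes the call stood under all 12 alternatives. THE1, a receptor kinase that monitors wall integrity, held 125, 144 and 140 CPM in the WT libraries and 187, 204 and 224 CPM in those of card1, a log2 difference of 0.65 ± 0.13 (adjusted p = 0.00028). XTH33, a xyloglucan endotransglucosylase, differed by 0.78 ± 0.16 (adjusted p = 0.00045), with 10.9, 11.5 and 12.6 CPM in WT libraries, below the 13.8, 23.0 and 20.9 CPM of card1. The armadillo-repeat protein AT1G23030 and the GATA factor BME3 differed by 0.82 and 0.92. AT1G77640, an AP2/ERF factor, differed most, by 1.71 ± 0.39 (adjusted p = 0.0015), a call lost without replicate 3 of card1 (adjusted p = 0.051) and in a fit to the compared libraries alone (adjusted p = 0.13). The gene lower in card1 was AT1G72416, a DnaJ-domain protein (-0.42 ± 0.16, adjusted p = 0.047), called under 3 of 12 alternatives and lost when any of 5 of the 6 libraries was left out.

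**Figure D5:**
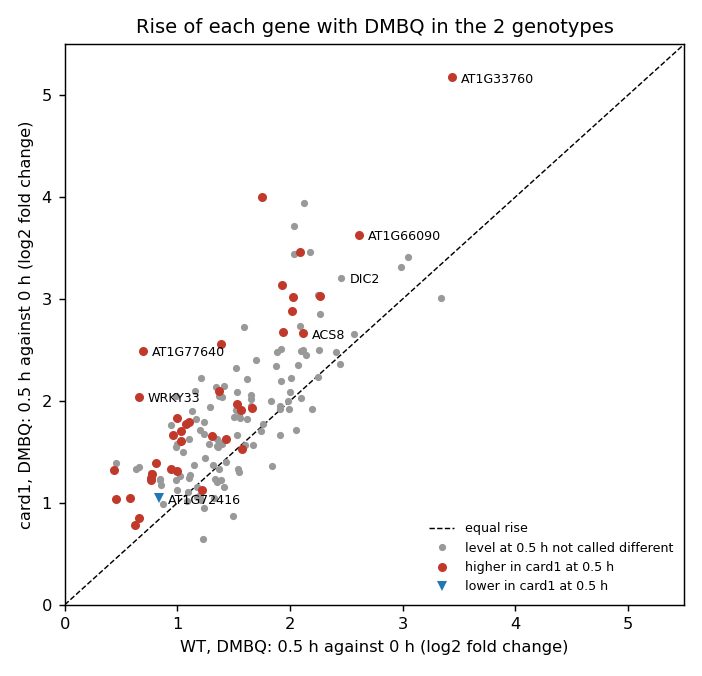
Log2 fold change from 0 to 0.5 h with DMBQ in WT (x axis) and card1 (y axis) for each of the 152 genes, from edgeR; the dashed line marks equal rises, and colour shows whether the 0.5 h level was called different between genotypes. All 152 genes have positive values on both axes, and 121 lie above the line.

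The rise itself differed between genotypes for 1 gene and the fall for 3, so most of the genes higher in card1 at the peak did not pass the test of a different rise. WRKY33 rose from 41.4, 22.4 and 33.0 CPM to 93.0, 102 and 200 CPM in card1 with DMBQ, and its rise was larger than in WT by 1.38 ± 0.39 (log2, adjusted p = 0.040). Of all tested genes, 1.64% had a larger and 1.83% a smaller rise in card1. Its fall to 28.7, 21.6 and 35.7 CPM at 1 h was steeper in card1 by 1.78 (a difference of -1.78 ± 0.38, adjusted p = 0.0085), since the WT libraries still held 59.0, 48.1 and 48.5 CPM. AT5G51190 and AT4G27280 also fell more steeply in card1 (-1.92 ± 0.54, adjusted p = 0.028, and -1.57 ± 0.50, adjusted p = 0.050), while the difference was negative for 3.7% of all tested genes and positive for 3.47%. With the correction for length and GC content only the steeper fall of WRKY33 was called. Leaving out 1 library at a time gave 0 to 4 genes for the rise and 1 to 9 for the fall. With the replicate number as a block, the counts were 3 and 10. At 1 h, XTH33 and AT1G22882 were higher in card1 with DMBQ and AT1G72940 was lower, against 4.11% and 3.27% of all tested genes, and XTH33 alone was called under all 12 alternatives.

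Counts for the other textbook lists of stress and defence genes at 0.5 h with DMBQ stand against 13.7% of all tested genes rising in WT and 5.86% in card1. Of 20 MYB, NAC, HSF and GRAS stress factors, 14 rose in WT and 12 in card1, and 4 are members. Of 18 ERF factors of groups VIII to X, 8 and 7 rose, of 11 CBF and DREB factors 5 and 6, and of 10 ZAT and AZF zinc finger factors 5 and 6, with 1 fall in WT. All 4 deadenylases and CCCH zinc finger proteins rose in both genotypes, as did 4 and 5 of 7 VQ motif proteins. Of 19 genes of pattern-triggered immunity, 9 and 8 rose and 1 fell in each genotype. Of 17 genes of the MAP kinase cascade, 7 and 6 rose and 1 fell in WT, and of 12 ubiquitin ligases 4 and 5 rose. In the hormone lists, 6 and 3 of 19 jasmonate synthesis and turnover genes and 2 and 4 of 8 ethylene synthesis genes rose, and 1 of each fell in WT. No difference between lists was tested. These counts include the members on each list.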

How the data were processed

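The authors deposited unnormalized gene counts, with a column for each of 48 libraries. The submitters' processing notes name the aligner HISAT2 2.1.0, the counter HTSeq 0.6.1 and the genome build TAIR10. No source used here gives the annotation version, the strand setting or the counting mode. The table held 33602 genes and 5 entries that name no gene. Those entries took 13.6 to 20.7% of the counts per library and were left out. Locus tags were matched to RefSeq's TAIR10.1 annotation (97.7% of genes matched, and all members), which gave symbols, structure and the 300 bases upstream.

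CPM divides by the gene counts of a library. Tests used edgeR 4.0.16 in R 4.3.3, with filterByExpr (minimum count 10), which kept 19839 genes and all 152 members, TMM scaling, and 1 robust quasi-likelihood fit with a mean per group over all 48 libraries. Benjamini-Hochberg adjustment ran over all 19839 genes, with calls at 0.05. The code was tested on simulated data. The genes singled out were those with the largest rises, highest levels and largest differences, those not called, and those on 17 textbook lists. The members, the lists and the rule for naming genes were chosen with earlier results of these data known. Alternatives were another scaling, no filter, DESeq2 1.42.0, a fit to the compared libraries alone, a replicate block, a correction for transcript length and GC content, another threshold or pseudocount, and leaving out each library. The depth of 4764682 to 14492051 gene counts limits genes near 1 CPM, which rest on a few reads per library.

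Replicate numbers paired the libraries for the fall from 0.5 to 1 h in card1 with DMBQ, where same-numbered libraries deviated together (correlations of 0.178 to 0.340). In the other comparisons not every correlation was over 0.1. These correlations ran over all tested genes, not over the members alone. The members' summed level was highest in the same replicate number in all 4 combinations of genotype and agent at each of 0, 0.5 and 1 h. The main tests do not take up such a pairing.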

Additional observations from a re-analysis of the deposited data

Results flagged for a closer look

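A test of the difference between the genotypes under the same contrast picked out 4 results. WRKY33 rose more from 0 to 0.5 h with DMBQ in card1 than in WT, by 1.38 on the log2 scale, and was called under 7 of 18 alternatives (adjusted p 0.011 to 0.21, edgeR's quasi-likelihood test or DESeq2), with the highest adjusted p among single libraries left out without replicate 3 of card1 at 0.5 h (0.19). Its change from 0.5 to 1 h differed by -1.78 and was called under all 18 (adjusted p 0.0011 to 0.048). For AT5G51190 that change differed by -1.92 and was called under 10 of 18, and for AT4G27280 by -1.57, called under 6 of 18. In all of these, the 3 WT libraries at 0.5 h with DMBQ carry the trend with transcript length (rho -0.44 to -0.40), whose part was not tested beyond the correction, under which the adjusted p was 0.21, 0.048, 0.086 and 0.11.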

How the results depend on the processing

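The counts of rising and falling genes with DMBQ stayed within 1.5 times of the reported ones under every alternative run. Leaving out 1 library at a time gave 127 to 146 rises in WT, 142 to 151 in card1, and 127 to 142 and 139 to 149 falls. It gave 36 to 44 and 21 to 42 genes for 1 h against 0 h, 62 to 97 and 71 to 105 for 6 h against 0 h, and 2 to 3 for DMBQ against DMSO at 6 h in each genotype. Card1 against WT gave 11 to 51 genes at 0.5 h and 1 to 4 at 1 h, the difference of rises 0 to 4 and that of falls 1 to 9. The rule gave 115 (without replicate 3 of WT in DMSO at 0.5 h) to 184 genes (without replicate 2), 261 at a threshold of 0.6 and 83 at a threshold of 1. Without card1 replicates 1 and 2 in DMSO at 0 h, an alternative chosen after seeing the data, it gave 150. A fit to the compared libraries alone, which has fewer samples, gave 7 and 5 genes for DMBQ against DMSO at 6 h, 27 for card1 at 1 h against 0 h, 6 for card1 against WT at 1 h, and ended 42 of 150 rises of named genes. The correction for length and GC content gave 0 genes for the difference of rises and 1 for that of falls, and DESeq2 gave 4 and 6; the cause was not tested. No rise of a named gene reversed. The replicate block gave 5 genes for card1 against WT at 1 h, 3 for the difference of rises and 10 for that of falls. By the correlations over all tested genes, numbers paired only the DMBQ libraries of card1 at 0.5 and 1 h. There the block gave 148 against 146 falls, with every earlier call kept. For card1 against WT at 0.5 h with DMBQ it gave 54 against 39 calls, again with every earlier call kept. Depth limits AT1G33760 and ZAT7, at or under 3 CPM at 0 h.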

Other observations

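The libraries of a replicate number shared an order of the summed level of the 152 genes. At 0.5 h and at 1 h, replicate 3 held the highest sum in all 4 combinations of genotype and agent, and at 0 h replicate 1 held the highest and replicate 2 the lowest in all 4. At 0.5 h the sums of replicate 3 were 10738 CPM in WT in DMSO, 11408 CPM in WT with DMBQ, 13020 CPM in card1 in DMSO and 15361 CPM in card1 with DMBQ. The labels do not say what a replicate number shares.

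The sums at 0 h ran from 2718 to 5276 CPM and those at 6 h from 1794 to 2102 CPM, each over 12 libraries.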
